A study of Mus musculus with 8 samples.

Results

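The 10 genes described here, Atf4, Atf5, Ddit3, Trib3, Asns, Chac1, Sesn2, Nupr1, Cebpb and Cebpg, are regulators and targets of the integrated stress response, the pathway that runs through the transcription factor ATF4. They were chosen by symbol: every probe set whose platform annotation names one of them belongs to the set. They make up 10 of the 18193 genes with a probe set of a single symbol on the array and are read by 20 probe sets. Of these probe sets 19 passed the filter on dim signals, and all 10 genes could be tested among 14004 genes.

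In the integrated stress response, kinases that sense amino acid shortage, unfolded protein, haem shortage or double-stranded RNA phosphorylate the translation factor eIF2 on its alpha subunit. General translation then slows, while the mRNA of ATF4 is translated better. Much of the control of ATF4 therefore acts on translation, and an expression array reads only its mRNA. ATF4 pairs with C/EBP family partners and binds composite C/EBP-ATF elements near genes of amino acid supply, and it induces CHOP (the product of Ddit3) and the pseudokinase TRIB3, which feeds back on ATF4. The pathway answers to culture conditions such as medium depletion as well as to the state of a cell.

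RNA of mouse embryonic stem (ES) cells, the control, was compared with that of 3 lines of induced pluripotent stem (iPS) cells, which are somatic cells returned to pluripotency and which the series describes as free of integrated vector. There were 4 groups of 2 arrays each, and each group was a single line: ES control, iPS line 1, iPS line 2 and iPS line 3. All were male and of the C57BL/6 background, were taken between passage 7 and 10, and were cultured with leukaemia inhibitory factor (LIF) in N2B27 medium, so strain, sex and medium were shared by all groups. Because a group is a single line, what belongs to a line and what belongs to its being an iPS line cannot be told apart in comparisons with ES control. These are bulk samples, in which fewer cells of a type and less RNA per cell cannot be told apart.

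On the linear MAS5 scale the 8 arrays had median signals of 54.1 to 64.3, and 58.1 to 61.4% of probe sets lay above a signal of 37.1, the floor used for dim probe sets. The summed signal of 10 pluripotency markers (Pou5f1, Nanog, Sox2, Zfp42 and others) ranged from 106575 to 122037 over all 8 arrays with none at the floor. In line 2, though, Dppa4 (-0.80), Utf1 (-0.86) and Pou5f1 (-0.23) were lower than in ES control, 3 of the 10 markers. Line 2 stood apart in several measures. Its actin control gave 3′ to 5′ signal ratios of 1.74 and 1.79, against 1.49 to 1.62 on the other 6 arrays, and its trophoblast marker sum was 4284 to 4704 against 2337 to 3358. Of 6 trophoblast markers tested, Krt7 and Tfap2c were higher and 4 were not called. Tfap2c alone read 3056 and 3556 in line 2. Elf5 and Gata3 were at or under the floor in line 2, Elf5 also in ES control and line 1. The fibroblast marker sum of line 2 was 529 to 567 against 318 to 374, where Pdgfrb alone of 5 tested was higher and Col1a1, Postn and Dcn were at or under the floor in every group. Primitive endoderm markers summed to 575 to 628 in line 2 against 456 to 538, and of 8 tested Amn was higher and Sox7 lower than in lines 1 and 3. Neural markers summed to 727 to 771 in line 2, 968 to 1062 in lines 1 and 3 and 621 to 719 in ES control. Among 5 tested, Tubb3 and Map2 were higher in line 1, Tubb3 and Pax6 in line 3 and Map2 in line 2 than in ES control. The part of these differences in the results on the members was not tested.

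The upstream sequences of the 10 members bear on the pathway, since ATF4 and its partners bind there. All 10 had an entry among RefSeq promoters of the GRCm38.p6 assembly, with 11 promoters in all, and the 250 bases before each start were searched on both strands for TGATGNAA, a form of the composite C/EBP-ATF element, and for TGACGTCA, the cyclic AMP response element, so written that the motifs cannot match the same 8 bases. The first was found in 3 of the 10 members, against 3.45% of 32851 promoters, and the second in 0 of the 10, against 1.55%. A match describes letters and is not evidence of binding, and its absence in this window says nothing of the factor. The 3 stretches with a match are shown 5′ to 3′ on the gene's strand, with the matched bases in capitals. They lie at chr6:7693210-7693459 on the minus strand for Asns, chr2:119350992-119351241 on the plus strand for Chac1 and chr7:126625471-126625720 on the minus strand for Nupr1.
Asns upstream: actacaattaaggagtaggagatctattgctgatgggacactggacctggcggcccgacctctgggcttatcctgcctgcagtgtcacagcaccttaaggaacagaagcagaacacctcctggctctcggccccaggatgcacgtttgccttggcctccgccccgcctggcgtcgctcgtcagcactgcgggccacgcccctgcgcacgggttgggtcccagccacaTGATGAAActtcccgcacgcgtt
Chac1 upstream: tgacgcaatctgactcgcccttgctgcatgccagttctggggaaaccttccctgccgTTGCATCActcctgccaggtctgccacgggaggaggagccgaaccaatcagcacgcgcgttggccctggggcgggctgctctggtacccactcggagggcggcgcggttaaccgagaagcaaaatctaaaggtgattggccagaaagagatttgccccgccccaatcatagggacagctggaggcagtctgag
Nupr1 upstream: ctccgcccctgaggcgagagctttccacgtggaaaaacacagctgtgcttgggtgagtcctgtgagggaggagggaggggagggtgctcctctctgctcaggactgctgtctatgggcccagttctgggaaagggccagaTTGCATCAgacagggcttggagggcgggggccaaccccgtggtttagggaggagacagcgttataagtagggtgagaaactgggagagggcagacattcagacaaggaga
In Asns the match lay 23 to 16 bases before the start, on the gene's strand. In Chac1 it lay 193 to 186 bases and in Nupr1 110 to 103 bases before the start, both on the opposite strand, where the matched letters read TGATGCAA. Among the 10 members, Asns had the narrowest range of group means over the 4 lines (0.14 log2) and Nupr1 (1.77) and Chac1 (1.49) the widest.

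Most members were highest in iPS line 2. On the brightest probe set the group mean was highest there in 9 of 10 (in line 1 for Asns). It was lowest in line 3 for 6, in ES control for 3 and in line 1 for Sesn2. How many of all genes had such an order was not counted. For Sesn2 line 2 exceeded ES control only 1.01-fold, and for Chac1 ES control exceeded line 3 only 1.002-fold, both with overlap. Second probe sets were highest in line 3 for Sesn2 (683 against 616 in line 2) and in line 1 for Cebpb (144 against 137). That of Asns was highest in line 2 (15291 against 15170 in line 1). On the brightest probe set of each gene, both arrays of line 2 lay above all 6 other arrays in 7 of the 10 members. Of all tested genes 23.8% showed that arrangement. For Nupr1 only did all 6 iPS arrays exceed both arrays of ES control, against 7.16% of genes. All comparisons with ES control share its 2 arrays, and those of line 2 share its arrays, so they are not independent of each other.

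**Figure D1:**
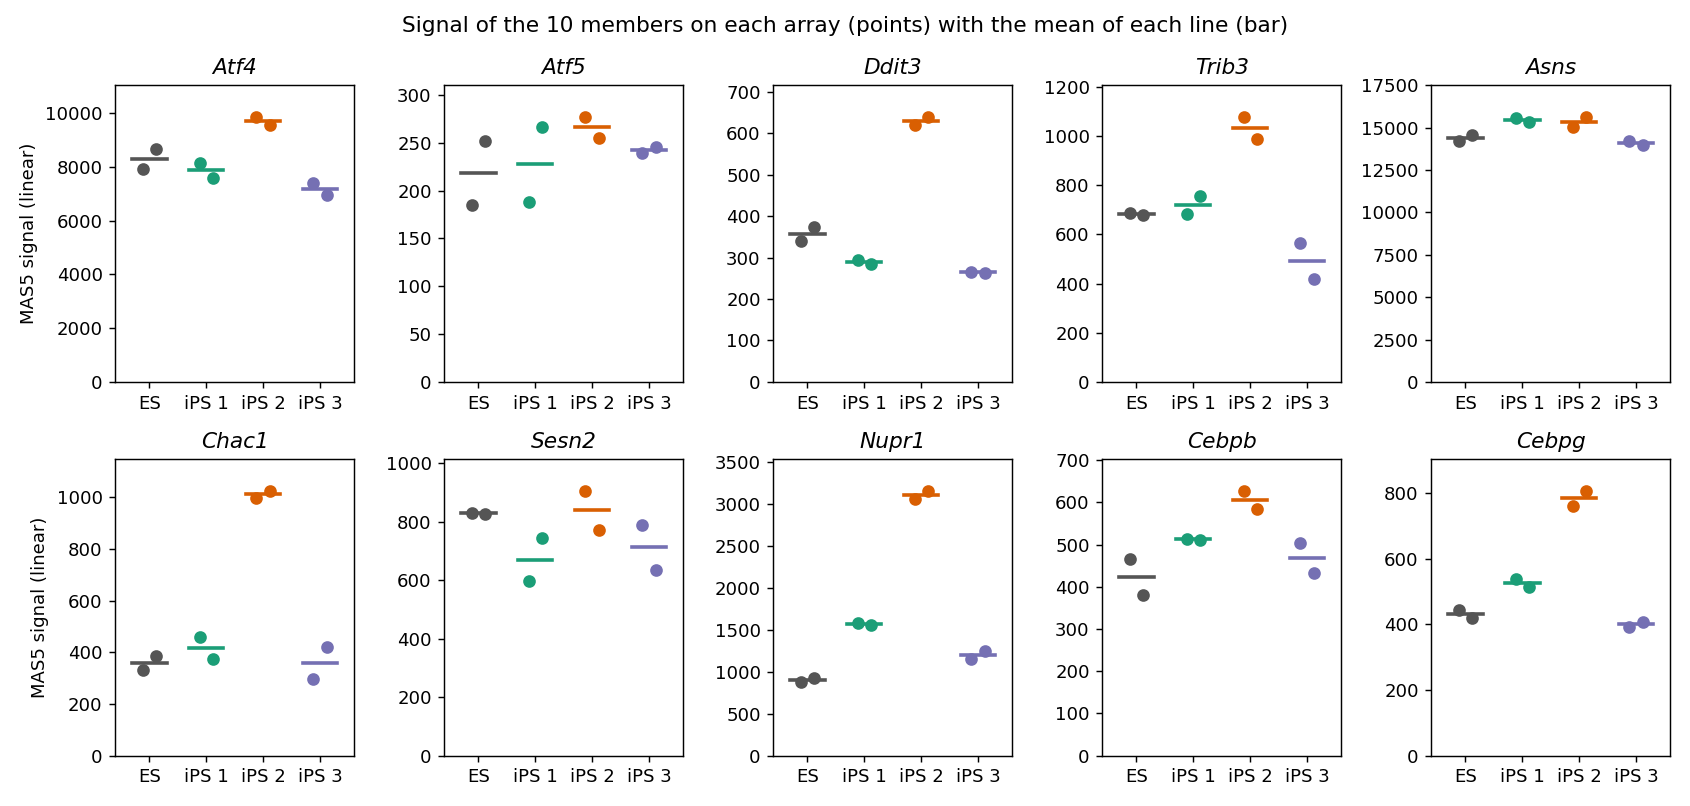
Linear MAS5 signal of each of the 10 members on each of the 8 arrays, with the 4 lines on the horizontal axis. Points are arrays and bars are means of the 2 arrays of a line. For Ddit3, Chac1 and Nupr1 both line 2 points stand well above every other point, while the points for Asns differ little between lines.

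Atf4 encodes the transcription factor at the centre of the pathway. Its signal was 7930 and 8651 in ES control, 8158 and 7602 in line 1, 9864 and 9550 in line 2, and 7417 and 6966 in line 3. On this brightest probe set line 2 lay above all other arrays and line 3 below all others, while ES control and line 1 overlapped. A second probe set read 4928 and 4834 in ES control, 4274 and 4984 in line 1, 4843 and 6095 in line 2, and 4185 and 4712 in line 3. There line 2 overlapped ES control and line 1, and line 3 overlapped line 1. On the log2(signal + 12) scale used for all tests, Atf4 was higher in line 2 than in the mean of lines 1 and 3 by 0.37 ± 0.06 (standard error, SE), with a limma adjusted p of 0.0002854. Against ES control it was higher in line 2 by 0.23 ± 0.06 (limma adjusted p = 0.01895), and with each array centred on its own median this was 0.07 and did not pass. Nor did it pass without ES control replicate 1 (0.17) or without line 2 replicate 1 (0.21). The difference of line 3 from ES control was -0.20 ± 0.06, which did not pass (limma adjusted p = 0.1098) but did after quantile normalization (-0.24, limma adjusted p = 0.04777). On the second probe set the differences from ES control were 0.15 in line 2 and -0.14 in line 3. Neither passed (limma adjusted p = 0.3455 and 0.5933, each probe set tested by itself).

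Atf5 encodes a related factor, likewise translated better under stress and a known target of the pathway. Its signal was 185 and 251 in ES control, 188 and 266 in line 1, 277 and 255 in line 2, and 239 and 246 in line 3. ES control and line 1 overlapped and both spanned line 3, line 1 also reached into line 2, and the 2 arrays of ES control or of line 1 differed from each other more than the lines did. It passed the test in none of the 6 comparisons, with limma adjusted p of at least 0.3164. The largest difference, line 2 against ES control, was 0.29 with a 95% interval of -0.13 to 0.70, so a rise of the size seen in Trib3 lay within its interval.

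Cebpb and Cebpg encode C/EBP factors that pair with ATF4. Cebpg had signals of 443 and 419 in ES control, 538 and 514 in line 1, 762 and 808 in line 2, and 393 and 409 in line 3. On this brightest probe set no groups overlapped, and the order ran from line 2 through line 1 and ES control to line 3. On another probe set line 3 (217 and 256) spanned both arrays of ES control (226 and 241). On the dimmest, ES control (66 and 44) overlapped line 1 (32 and 59). Line 2 was highest on all of them. Cebpg was higher in line 2 than in lines 1 and 3 by 0.76 ± 0.09 (limma adjusted p = 4.538e-05) and than in ES control by 0.85 ± 0.10 (limma adjusted p = 8.02e-05). Line 1 stood 0.28 ± 0.10 above ES control and line 3 0.10 below it, and neither passed. The average of the iPS lines against ES control passed at 0.34 ± 0.09 (limma adjusted p = 0.02891), and without line 2 it was 0.09 and did not. It also failed to pass without either ES array (0.38 and 0.30). The same held without line 1 replicate 1, line 2 replicate 2 or line 3 replicate 2 (each 0.33). Nor did it pass with centred arrays (0.30), with averaged probe sets (0.23) or without a variance trend (0.34). In this average the other Cebpg probe sets gave 0.41 and -0.06. Neither passed (limma adjusted p = 0.07054 and 0.9436, each probe set tested by itself).

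For Cebpb the signals were 465 and 382 in ES control, 514 and 511 in line 1, 628 and 584 in line 2, and 504 and 433 in line 3. Line 2 lay above all others, and ES control overlapped line 3. Cebpb was higher in line 2 than in ES control by 0.51 ± 0.13 (limma adjusted p = 0.009042), a call lost without ES control replicate 2 (0.37), without line 2 replicate 1 (0.46) and with centred arrays (0.35). Against lines 1 and 3 the difference was 0.30 ± 0.11 with a limma adjusted p of 0.04991, just inside the threshold, and it failed to pass under 12 of 20 alternatives, over which its adjusted p ranged from 0.03374 to 0.4253. Among these were the fits without either array of line 1, without either array of line 2 or without line 3 replicate 2, with differences of 0.25 to 0.35. The difference was 0.19 after quantile normalization, 0.19 with averaged probe sets and 0.13 with centred arrays, and none of these passed.

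Ddit3 encodes CHOP, a factor induced by ATF4 that can drive stressed cells towards death. Its signal was 341 and 373 in ES control, 295 and 284 in line 1, 620 and 640 in line 2, and 266 and 263 in line 3. No groups overlapped, and line 2 was above ES control while lines 1 and 3 were below it. Ddit3 was higher in line 2 than in lines 1 and 3 by 1.15 ± 0.10, or 2.23-fold (limma adjusted p = 5.007e-06), and than in ES control by 0.80 ± 0.12 (limma adjusted p = 0.0003517). A second, dimmer Ddit3 probe set put line 2 above ES control by 0.32, which did not pass (limma adjusted p = 0.3725, each probe set tested by itself). The differences of lines 1 and 3 from ES control, -0.29 ± 0.12 and -0.42 ± 0.12, did not pass (limma adjusted p = 0.291 and 0.07852). In the mean of the 3 lines the opposite signs met at 0.03 ± 0.10, a value that stands for no single line and was -0.35 without line 2.

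Trib3 encodes a pseudokinase induced by ATF4 and CHOP that restrains ATF4. Its signal was 687 and 680 in ES control, 682 and 757 in line 1, 1078 and 986 in line 2, and 566 and 420 in line 3. Line 2 was above and line 3 below all other arrays, and line 1 overlapped ES control. Trib3 was higher in line 2 than in lines 1 and 3 by 0.79 ± 0.11 (limma adjusted p = 0.0001687) and than in ES control by 0.58 ± 0.13 (limma adjusted p = 0.004797). Its difference between line 3 and ES control, -0.48 ± 0.13, did not pass (limma adjusted p = 0.0599), though without line 3 replicate 1 it was -0.69 and did (limma adjusted p = 0.01747), and without line 3 replicate 2 it was -0.27. A second Trib3 probe set gave 389 and 328 in ES control and 339 and 373 in line 3, a difference of -0.0067, so the low level of line 3 was seen by only 1 of the 2 probe sets. The second probe set put the mean of the 3 lines above ES control by 0.41 ± 0.10 (limma adjusted p = 0.04279, each probe set tested by itself).

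Chac1 encodes an enzyme that degrades glutathione and is a target of ATF4 and CHOP. Its signal was 332 and 384 in ES control, 457 and 374 in line 1, 995 and 1025 in line 2, and 297 and 418 in line 3. Both line 2 arrays were above all others, and the other 3 lines overlapped. Chac1 was higher in line 2 than in lines 1 and 3 by 1.38 ± 0.14, or 2.60-fold (limma adjusted p = 1.12e-05), and than in ES control by 1.47 ± 0.16, or 2.77-fold (limma adjusted p = 2.843e-05). The mean of the 3 lines passed at 0.55 ± 0.13 (limma adjusted p = 0.02087) but was 0.09 without line 2, and it did not pass without either ES array (0.45 and 0.65).

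Nupr1 encodes a small stress-induced chromatin-associated protein that is a target of ATF4. Its signal was 878 and 923 in ES control, 1578 and 1560 in line 1, 3052 and 3159 in line 2, and 1147 and 1241 in line 3. No groups overlapped, and all 3 iPS lines stood above ES control. Nupr1 was the only member that passed in all 6 comparisons. Against ES control it was higher by 0.79 ± 0.08 in line 1 (limma adjusted p = 0.0001288), by 1.77 ± 0.08 or 3.42-fold in line 2 (limma adjusted p = 2.518e-08), and by 0.40 ± 0.08 in line 3 (limma adjusted p = 0.0105). Line 2 exceeded lines 1 and 3 by 1.18 ± 0.07 (limma adjusted p = 1.285e-07), and line 1 exceeded line 3 by 0.39 ± 0.08 (limma adjusted p = 0.02715). The line 3 call was lost without either ES array (0.37 and 0.44) or line 3 replicate 2 (0.35), and the call between lines 1 and 3 without any 1 of their 4 arrays (0.34 to 0.45). The mean of the 3 lines was higher than ES control by 0.99 ± 0.06 (limma adjusted p = 1.985e-06), and it was 0.60 without line 2. A second Nupr1 probe set put line 3 above ES control by 0.34, which did not pass (limma adjusted p = 0.08801, each probe set tested by itself). It passed in every other comparison.

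Asns and Sesn2 are targets too: Asns encodes asparagine synthetase and Sesn2 a leucine-responsive inhibitor of mTORC1. The signal of Asns was 14234 and 14550 in ES control, 15583 and 15344 in line 1, 15027 and 15636 in line 2, and 14181 and 13965 in line 3. Its group means spanned 0.14 log2, the narrowest range of the 10 members, and lines 1 and 2 overlapped. Asns passed in none of the 6 comparisons (limma adjusted p at least 0.2205), and its difference between line 2 and ES control was 0.09 with a 95% interval of -0.02 to 0.20, which does not reach the differences of Ddit3, Trib3, Chac1, Nupr1, Cebpb or Cebpg in the same comparison. Sesn2 had signals of 831 and 826 in ES control, 595 and 745 in line 1, 906 and 772 in line 2, and 789 and 635 in line 3. The arrays of line 2 spanned both ES arrays, and lines 1 and 3 overlapped. Sesn2 also passed in none (limma adjusted p at least 0.08256), with 0.01 for line 2 against ES control and an interval of -0.27 to 0.30. Against lines 1 and 3 it was 0.28 ± 0.11, and it passed without line 1 replicate 2 or line 3 replicate 1 (0.36 each). Without line 2 replicate 1 it was 0.17, and its second probe set gave 0.016.

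**Figure D2:**
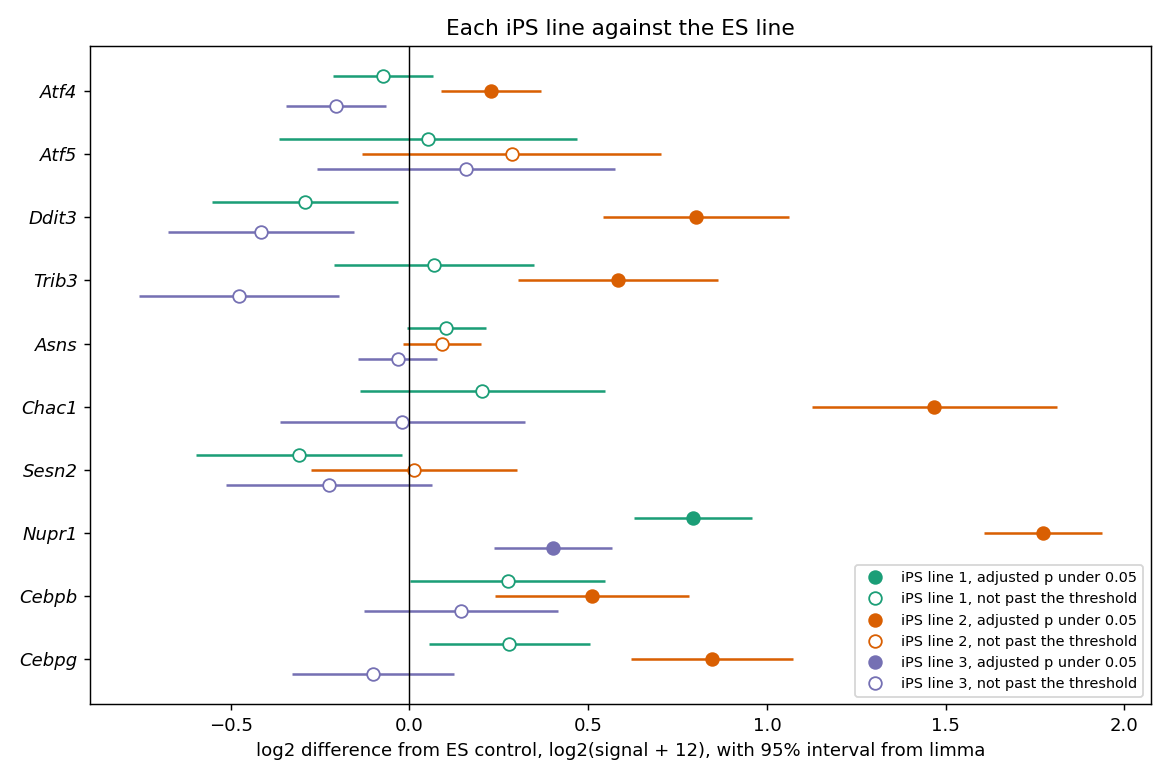
Difference of each iPS line from ES control in log2(signal + 12) for the 10 members, with 95% intervals from limma; filled points passed an adjusted p of 0.05 over all 14004 genes. Line 2 has 7 filled points and lines 1 and 3 have a filled point each, both for Nupr1.

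Counted over the set, 7 of the 10 members were higher and 0 lower (limma) in line 2 than in lines 1 and 3, where 19.7% of all genes were higher and 12.9% lower. The 7 were Atf4, Ddit3, Trib3, Chac1, Nupr1, Cebpb and Cebpg. At an unadjusted p under 0.05 in limma there were 8 higher, with Sesn2 added, and 0 lower. The same 7 were higher in line 2 than in ES control, where 16.1% of genes were higher. The median difference of the 10 members was 0.56 against lines 1 and 3 and 0.55 against ES control, beside medians over all genes of 0.08 and 0.07. Centring each array on its median moved those all-gene medians to -0.09 in both comparisons. It lowered the share of genes higher to 10.8% against lines 1 and 3, with 23.4% lower, and to 9.62% against ES control, with 19.4% lower. Of all calls against lines 1 and 3, 60.4% were higher as deposited and 31.6% when centred. Under centring Atf4, Ddit3, Trib3, Chac1, Nupr1 and Cebpg were still called higher in line 2 than in lines 1 and 3, and Asns turned to -0.12 without passing (limma adjusted p = 0.05565).

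The other comparisons held fewer calls. In line 1 against ES control 1 of 10 members was higher, with 1.21% of genes higher, and in line 3 it was again 1 of 10, with 1.59%. Both calls were Nupr1. Line 1 against line 3 gave 1 of 10, Nupr1 once more, where 1.06% of genes were higher. When the 3 iPS lines were averaged and set against ES control, 3 of 10 were higher (Chac1, Nupr1 and Cebpg), where 4.27% of genes were higher and 3.03% lower. Only Nupr1 of these passed without line 2.

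Each probe set of the members was also tested by itself, among 25733 probe sets. In line 2 against lines 1 and 3, 10 of the 19 member probe sets above the floor were called higher, where 15.4% of all probe sets were. Atf4 probe sets above the floor gave 0.37 and 0.26, and both were called. Both probe sets of Nupr1 gave close values, 1.18 and 1.16, as did those of Trib3 with 0.79 and 0.71. They disagreed for Ddit3, where the brighter gave 1.15 and the dimmer 0.56 (limma adjusted p = 0.05007), and for Cebpb, where they gave 0.30 and 0.07 and neither passed here (limma adjusted p = 0.06331 and 0.8157). Cebpg had 3, with 0.76 and 0.70 called and a dim probe set at 0.86 that did not pass (limma adjusted p = 0.0701). The probe sets of Sesn2, of Asns and of Atf5 did not pass either. Names ending in _x_at, as for the brightest probe sets of Trib3 and Asns, mark probes that may read other transcripts as well.

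**Figure D3:**
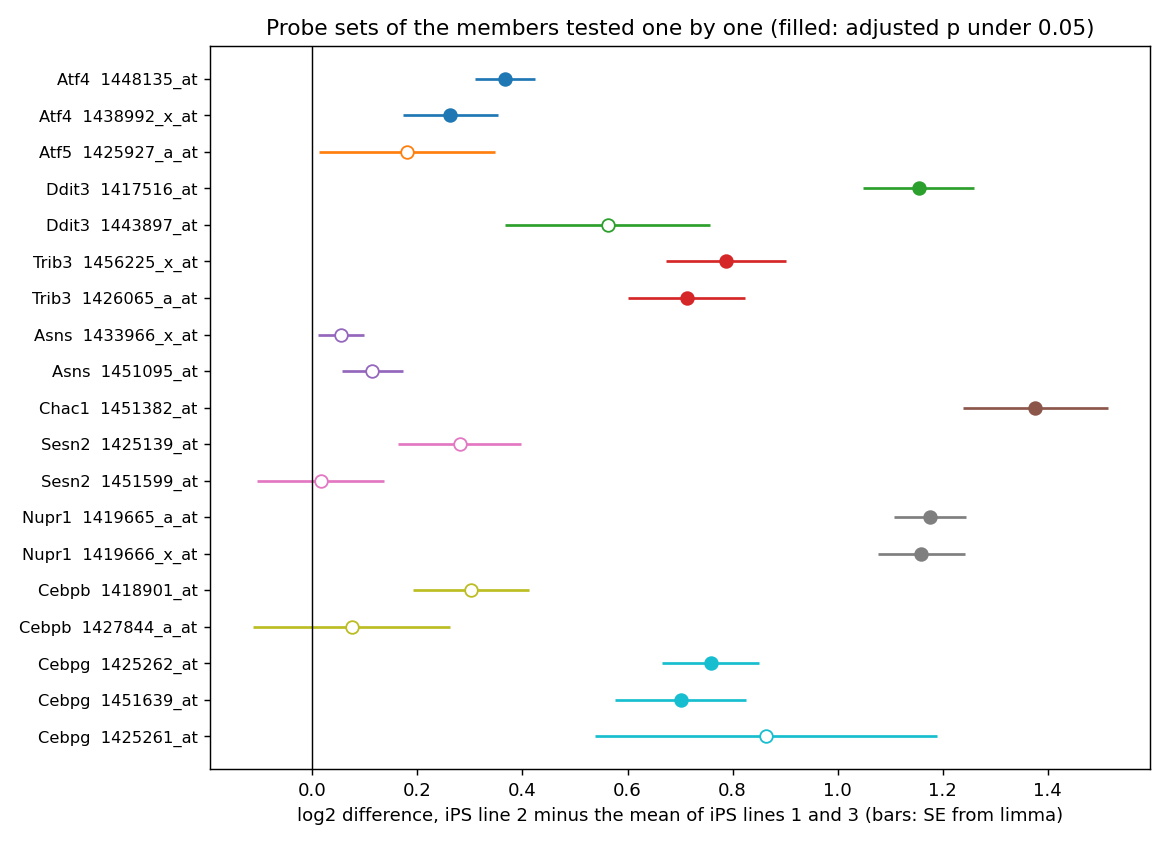
Log2 difference between iPS line 2 and the mean of iPS lines 1 and 3 for each of the 19 member probe sets above the floor, with bars of 1 SE from limma; colours mark genes and filled points passed an adjusted p of 0.05 over 25733 probe sets. Of the 19 points 10 are filled, and the 2 Ddit3 probe sets lie apart at 1.15 and 0.56.

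Over the 8 arrays, which include 2 of each line, the members ran together only in part. The Pearson r of Atf4 was 0.95 with Ddit3, 0.91 with Trib3, 0.83 with Chac1 and 0.84 with Cebpg. It was 0.70 with Nupr1, 0.58 with Asns, 0.56 with Cebpb, 0.54 with Sesn2 and 0.29 with Atf5. Atf5 reached at most 0.48 with any member (Nupr1) and Sesn2 at most 0.57 (Trib3), and Sesn2 had -0.13 with Asns. Nupr1 ran closest with Cebpg, at 0.95, and Chac1 with Cebpg, also at 0.95. The points share 4 lines, so these correlations describe the lines and not independent samples.

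Genes with clone names, such as those with Rik or with Gm and digits, were left out of the search for similar patterns. Genes of most similar pattern were sought among 6126 other tested genes, no members, whose own group means spanned at least 0.5 log2. For Ddit3 they were Vhl, which encodes the ubiquitin ligase subunit that recognises hypoxia-inducible factors, with a Pearson r of 0.9956 over 8 arrays, Tmc7 (0.9944) and Lpin1 (0.9943). For Cebpg they were Ndrg1 (0.9956), a stress- and hypoxia-responsive gene, Skil (0.9949), a repressor of SMAD signalling, and the Hedgehog receptor gene Ptch1 (0.9922). For Nupr1 they were Prom1 (0.9954), Cldn7 (0.9948), a tight junction gene, and the potassium channel gene Kcnk1 (0.993). For Chac1 they were Ccdc68 (0.9889), Ttc3 (0.9877) and Tbc1d1 (0.9874), for Trib3 Apobec1 (0.9889), Hpn (0.9874) and Ier3 (0.9853), and for Cebpb Sestd1 (0.9792), Cerk (0.977) and Tbck (0.9745). Each was chosen as the highest among these 6126, and all of them had their highest group mean in line 2.

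Genes around the members were read from 6 lists of the pathway. Among 13 kinases, eIF2 and eIF2B subunits and phosphatase subunits, 3 were higher and 4 lower in line 2 than in lines 1 and 3, with a list median of -0.16. Quantile normalization gave 2 higher and 5 lower, and centred arrays 2 and 7, with a median of -0.34. Beside these, 14.5% of all genes were lower after quantile normalization and 23.4% with centred arrays, with a median of -0.09 there. Eif2b1 and Eif2b2, subunits of the exchange factor that recharges eIF2, were lower, with differences of -0.51 ± 0.06 and -0.43 ± 0.06 (limma adjusted p = 5.795e-05 and 0.000141). Eif2b5, the catalytic subunit, was lower too (-0.24), and in the mean of the 3 lines it was the only gene of the list to pass (-0.29 ± 0.05, limma adjusted p = 0.003723). Impact, an inhibitor of the amino acid sensing kinase GCN2, was lower (-0.34), and Ppp1r15b, a phosphatase subunit that reverses eIF2 phosphorylation, was higher (0.43 ± 0.05, limma adjusted p = 5.403e-05). Eif2ak4, which encodes GCN2, read 673 and 669 in line 2 and 439 to 602 on the other 6 arrays. After quantile normalization its difference from lines 1 and 3 was 0.25 and did not pass (limma adjusted p = 0.1). The interferon-induced kinase gene Eif2ak2 did not pass (0.34, limma adjusted p = 0.07489). Ppp1r15a (GADD34), the stress-induced phosphatase subunit and a target of CHOP, was singled out after its values were seen. It read 999 and 824 in line 2 and 556 to 729 on the other 6 arrays, a difference of 0.55 ± 0.11 from lines 1 and 3 (limma adjusted p = 0.001676).

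Among 20 other ATF4 and CHOP targets and partners, 10 were higher and 2 lower in line 2 than in lines 1 and 3, with a median of 0.36. Ppp1r15a belongs to this list as well, so its higher call is counted in both lists. The mean of the 3 lines gave 5 higher and 2 lower, where 4.27% of all genes were higher and 3.03% lower. Line 2 against lines 1 and 3 gave 10 higher and 3 lower after quantile normalization, and 9 and 4 with centred arrays. In line 3 against ES control 5 of the 20 were lower, where 2.57% of all genes were. Ddit4, an inhibitor of mTORC1, read 1300 and 1447 in ES control, 1764 and 1849 in line 1, 8341 and 8280 in line 2, and 969 and 1018 in line 3. No groups overlapped, and line 2 exceeded lines 1 and 3 by 2.62 ± 0.06 (limma adjusted p = 1.032e-10), while line 3 was below ES control (-0.46 ± 0.07, limma adjusted p = 0.004359). Ero1a, an oxidase of the endoplasmic reticulum, had the same order, with 1513 and 1471 in ES control, 1926 and 1728 in line 1, 5588 and 5329 in line 2, and 900 and 924 in line 3. Its difference between line 2 and lines 1 and 3 was 2.07 ± 0.07 (limma adjusted p = 1.112e-09). The lipoprotein receptor gene Vldlr (2.18 ± 0.15), the glycoprotein hormone gene Stc2 (1.52 ± 0.17) and the alanine aminotransferase gene Gpt2 (0.97 ± 0.09) were higher in line 2 as well. Ddit4, Ero1a, Vldlr and Stc2 are also known as genes induced by hypoxia. Cth, the cystathionine lyase gene and an ATF4 target, went the other way: 5974 and 6019 in ES control, 4770 and 4608 in line 1, 3404 and 3422 in line 2, 5018 and 5211 in line 3. It was lower in all 3 lines than in ES control (-0.46 ± 0.05 in their mean, limma adjusted p = 7.645e-05) and lowest in line 2. Gadd45a was low in line 2 as well, with 1669 and 1515 there and 2441 to 2744 on the other 6 arrays. After quantile normalization it differed from lines 1 and 3 by -0.67 (limma adjusted p = 1.738e-05).

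Among 11 enzymes of serine, one-carbon, proline and glycine metabolism, the mean of the 3 lines against ES control gave 5 higher and 0 lower (limma; 7 and 0 at an unadjusted p under 0.05), with a median of 0.23, beside 4.27% of all genes higher and 3.03% lower. In line 2 against lines 1 and 3 the list gave 4 higher and 2 lower, or 5 and 2 after quantile normalization and 2 and 3 with centred arrays, so its balance turned with the scaling. Psat1, an enzyme of serine synthesis, read 6488 and 7137 in ES control, 11090 and 10340 in line 1, 9453 and 9311 in line 2, and 10685 and 10597 in line 3. It was above ES control in all 3 lines, and lower in line 2 than in lines 1 and 3 (-0.19 ± 0.05, limma adjusted p = 0.01743). Phgdh, the first enzyme of serine synthesis, was above ES control by 0.48, 0.62 and 0.49 in lines 1, 2 and 3, and all 3 passed. Mthfd2, of mitochondrial folate metabolism, and Aldh18a1, of proline synthesis, were higher in line 2 than in lines 1 and 3, by 0.53 ± 0.06 and 0.58 ± 0.06. Shmt1 was lower (-0.39), and Got1 was higher by 0.17, which was 0.00043 with centred arrays and did not pass. The small difference of Phgdh between line 2 and lines 1 and 3 (0.14) turned to -0.03 in the same way.

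Among 11 amino acid transporters, 4 were higher and 3 lower in line 2 than in lines 1 and 3, with 4 and 3 after quantile normalization but 1 and 5 with centred arrays, while the mean of the 3 lines gave 1 of each. The arginine and lysine transporter gene Slc7a3 read 5883 and 5407 in ES control, 4916 and 5158 in line 1, 2481 and 2326 in line 2, and 5235 and 6024 in line 3. Line 2 was below all others, by -1.14 ± 0.07 against lines 1 and 3 (limma adjusted p = 1.714e-07). The neutral amino acid transporter gene Slc1a4 was higher there (0.70 ± 0.14, limma adjusted p = 0.002223), Slc38a1 and Slc7a6 were lower (-0.47 and -0.38), and Slc43a1 was higher in the mean of the 3 lines (0.49 ± 0.12, limma adjusted p = 0.02213). Slc7a5, a leucine transporter gene, had -0.11 in line 2 against lines 1 and 3 and did not pass.

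Of 18 cytosolic aminoacyl-tRNA synthetases, 2 were higher and 3 lower in line 2 than in lines 1 and 3, with a median of 0.01. Quantile normalization gave 5 higher and 1 lower and centred arrays 1 and 9, so the list had no direction that held across scalings. Cars was higher by 0.45 ± 0.09 (limma adjusted p = 0.00267), and Rars and Tars were lower (-0.22 and -0.20), Rars not passing after quantile normalization (-0.14, limma adjusted p = 0.05219). Nars was higher by 0.14, or 0.17 after quantile normalization, and centring turned it to -0.04. Sars was the gene that passed in the mean of the 3 lines (0.25 ± 0.06, limma adjusted p = 0.02223), though not with centred arrays (0.20, limma adjusted p = 0.05878), and Vars did not pass (0.28, limma adjusted p = 0.1937). The 18 genes of the ATF6 and XBP1 arm of the unfolded protein response gave 5 higher and 2 lower in line 2 than in lines 1 and 3, with a median of 0.07. After quantile normalization 7 were higher and 2 lower, and with centred arrays 3 and 6. Edem1 and Sel1l, of endoplasmic reticulum degradation, were higher there by 0.55 each, and the chaperone partner Dnajb9 by 0.38, while Sdf2l1 was higher by 0.31 and did not pass with centred arrays. Pdia6 was lower in the mean of the 3 lines (-0.19 ± 0.05, limma adjusted p = 0.04749) but did not pass after quantile normalization (limma adjusted p = 0.06045). Creld2 did not pass (-0.22, limma adjusted p = 0.05744) but did with centred arrays (-0.26, limma adjusted p = 0.02693). The list medians stand beside 0.08 for all genes, 19.7% of which were higher and 12.9% lower in this comparison. After quantile normalization 2212 of all 14004 genes were higher and 14.5% lower, and with centred arrays 10.8% were higher and 23.4% lower. The counts of every list under those scalings stand beside these shares.

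**Figure D4:**
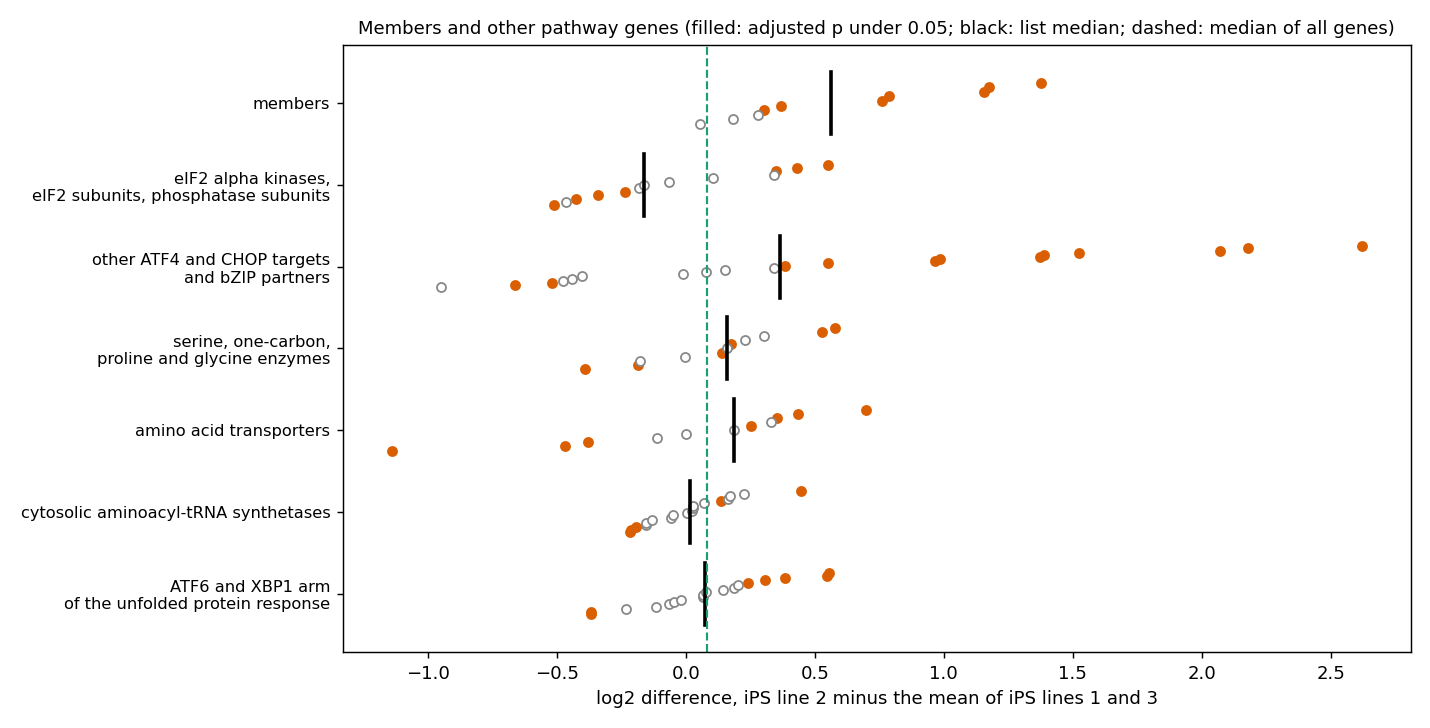
Log2 difference between iPS line 2 and the mean of iPS lines 1 and 3 for the 10 members and for the genes of 6 pathway lists; filled points passed an adjusted p of 0.05, black bars are list medians and the dashed line is the median of all genes at 0.08. Height within a list carries no meaning. The members and the other ATF4 and CHOP targets have the highest list medians, 0.56 and 0.36, and each of the 6 pathway lists has filled points on both sides of 0.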

How the data were processed

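Gene expression was measured on Affymetrix 3′ arrays in 8 samples of 4 groups. The authors deposited 1 linear intensity per probe set and array, computed by MAS5 per the submitters' processing notes. For its version, scaling target and detection calls, the sources used here give nothing. After leaving out 2% of values at each end, every array had a mean signal of 500.004, so signals were used as deposited.

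Of 45101 probe sets, 64 were controls; 34945 had 1 gene symbol in the platform annotation, 932 several and 9160 none, and only those with 1 symbol entered the gene tests. Before log2, 12 was added to each signal (their 20th percentile), and folds are on that scale, which understates changes at low signal. Probe sets entered if above 37.1 (the 40th percentile) in at least 2 arrays, and the brightest one stood for its gene. No probe set's level was set against another's. The test was limma 3.58.1 under R 4.3.3 (lmFit with group means over all 8 arrays, eBayes with an intensity trend, 4 residual and 12.4 total degrees of freedom), two-sided, with Benjamini-Hochberg adjustment over all 14004 genes and a threshold of 0.05. The fit was tested on simulated data with known changes.

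The 2 arrays of a group limit the precision. Titles call them biological replicates without saying whether cultures were separate, so p-values measure the spread between arrays, which may be partly technical. Same-numbered arrays did not deviate together (correlations of -0.01 to 0.03 over 6 pairs of groups), so the main design has no block. The members and lists were chosen with earlier results of these data known. All 10 members are named. Of each list those named are up to 4 genes with the smallest adjusted p in the mean of the 3 lines and up to 2 more in line 2 against lines 1 and 3, and for each member whose group means span at least 0.5 log2 the 3 genes with the highest Pearson r. Ppp1r15a, Eif2ak4 and Gadd45a are named besides, after their values were seen. Alternatives were other scalings, pseudocounts, filters, probe set rules and designs, leaving out each array or line 2, and, added after seeing the data, each probe set tested by itself.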

Additional observations from a re-analysis of the deposited data

Results flagged for a closer look

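The difference between iPS lines was itself tested for the 10 members, and 8 values passed. Of all genes 19.7% were higher in line 2 than in lines 1 and 3, and 1.06% in line 1 than in line 3. In line 2 against the mean of lines 1 and 3 the log2 differences were 0.3668 for Atf4, 1.154 for Ddit3, 0.7876 for Trib3, 1.376 for Chac1, 1.175 for Nupr1, 0.3016 for Cebpb and 0.7583 for Cebpg (limma adjusted p from 1.285e-07 for Nupr1 to 0.04991 for Cebpb). On the brightest probe set of each of these 7 genes both arrays of line 2 were above all 6 other arrays, as in 23.8% of all tested genes. This arrangement is no separate support, since the 7 were picked as higher in line 2. In line 1 against line 3 Nupr1 differed by 0.3915 (limma adjusted p = 0.02715), with both arrays of line 1 above both of line 3. In that last comparison the difference for Trib3, 0.55 ± 0.13, did not pass (limma adjusted p = 0.06025). Without single arrays it ranged from 0.34 to 0.76, with the highest value without line 3 replicate 1.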

How the results depend on the processing

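Of 1210 member differences under alternatives, 1129 kept their direction and side of the threshold, 47 lost their call, 6 gained one and 28 changed sign. In line 2 against lines 1 and 3, Atf4, Ddit3, Trib3, Chac1, Nupr1 and Cebpg were called under all 20 alternatives, and in line 2 against ES control Ddit3, Chac1, Nupr1 and Cebpg were. The Nupr1 call in line 1 against ES control also held under all 20. Among these alternatives, testing each probe set by itself counted only the brightest of each gene. Tested so in line 2 against ES control, the second Ddit3 probe set (0.32) and the dimmest of Cebpg (0.52) did not pass. Without a variance trend in limma, the line 2 calls against ES control were lost for Atf4 (adjusted p = 0.1365) and Trib3 (adjusted p = 0.05673).

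In the mean of the 3 lines against ES control, 1 member (Nupr1) was called without a variance trend, where 2.06% of all genes passed. Without iPS line 2 it was also 1 (Nupr1), where 3.51% did. With line means as samples there were 0 (limma; also 0 at an unadjusted p under 0.05), where 0 of all 14004 genes passed and 281 had an unadjusted p under 0.05. Leaving out single arrays could change the count there, and each time fewer of all genes passed than in the main fit. In line 3 against ES control the count was 2 after quantile normalization, where 3.67% of all genes passed, and 0 without a variance trend (3 unadjusted), where 0.157% did, and 0 to 2 without single arrays. It was 0 without either ES array or without iPS line 3 replicate 2. In line 1 against line 3 it was 0 with centred arrays (3 unadjusted; 1.38% of all genes passed), without a trend (3; 0.121%) and with only the groups compared (4; 1.03%), and 0 to 1 without single arrays, with 0 without either array of line 1 or without replicate 2 of line 3. The counts for line 2 against ES control and against lines 1 and 3 could also change without single arrays, and there too fewer of all genes passed each time.

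Signs changed as follows. Sesn2 in line 2 against ES control was -0.0694 after quantile normalization, -0.15 with centred arrays and -0.0291 with the mean of a gene's probe sets. Chac1 in line 3 against ES control was 0.0184 after quantile normalization and 0.0196 with centred arrays. Asns with centred arrays was -0.0711 in line 2 and 0.00709 in line 3 against ES control, and -0.12 in line 2 against lines 1 and 3. In the mean of the 3 lines Ddit3 was -0.0148 with centred arrays, -0.0135 with averaged probe sets and -0.35 without line 2, where Trib3 was -0.20. Without single arrays the mean of the 3 lines ranged from -0.0787 to 0.0466 for Atf4, -0.0441 to 0.375 for Atf5, -0.0328 to 0.0956 for Ddit3 and -0.0109 to 0.13 for Trib3. Line 1 against ES control ranged from -0.19 to 0.29 for Atf5 and -0.00432 to 0.14 for Trib3. Sesn2 ranged from -0.10 to 0.13 in line 2 against ES control, Atf5 from -0.0503 to 0.37 and Chac1 from -0.26 to 0.22 in line 3 against ES control. In line 1 against line 3 the ranges were -0.35 to 0.13 for Atf5, -0.0164 to 0.46 for Chac1 and -0.25 to 0.0729 for Sesn2. The cause was not tested. The replicate block changed no call of a member; over all genes it gave 1035 calls against 1022 in the mean of the 3 lines. Groups of 2 arrays limit what can be called.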
